A study of Homo sapiens with 10 samples.

Results

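Rb occupancy was examined at the promoters of 5 genes of DNA mismatch repair, namely MSH3, MSH6, PMS1, PMS2 and EXO1. Each gene was represented by the Rb peaks that overlapped its promoter. The promoter was the stretch from 2000 bp upstream to 500 bp downstream of any annotated transcript start of the gene (GENCODE 44, hg38). The 5 members were picked by name from 19970 protein-coding genes. Earlier results of these data were known at that point, so the choice was not blind to Rb signal. Native Rb had been profiled by CUT&RUN, in which an antibody directs a nuclease to the protein on chromatin and the released DNA is sequenced, in the OVCAR-3 and Kuramochi cell lines, which derive from high-grade serous ovarian cancer and are labelled wild type. Cells of each line received INX-315, an inhibitor of CDK2, at 300 nM, or DMSO alone, and the study's text gives 2 days of treatment and independent cultures as replicates. This gave 4 groups of 2 Rb libraries (8 in all), plus 1 IgG2a control library per line from DMSO-treated cells, which makes 2 controls and none from INX-315-treated cells.

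Mismatch repair corrects errors left by the replicating polymerase. MutS-type proteins, among them MSH6 (base mismatches and small loops) and MSH3 (larger insertion or deletion loops), recognise the error, MutL-type proteins such as PMS2 nick the strand that carries it, and the exonuclease EXO1 removes that strand before it is resynthesised. PMS1 is a further MutL-type subunit with a less well defined part in repair. Rb binds E2F transcription factors at promoters of cell cycle, replication and repair genes, and CDK4/6 and CDK2 phosphorylate Rb and so release it from E2F.

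Every one of the 5 promoters carried a single Rb peak region, and that region had a peak in each of the 8 Rb libraries (40 of 40 gene and library pairs). Neither IgG2a library had a peak at any of them. Both control lists were very short, however: the main chromosomes held 25 peaks for OVCAR-3 IgG2a and 12 for Kuramochi IgG2a. Rb libraries had 5196 to 17203 there. Absence from such short lists says little about these promoters, and the share of all genes without an IgG2a peak was not counted. For Rb, by comparison, 18.8% of protein-coding genes (3762 of 19970) had a promoter peak in all 8 libraries. The share with a promoter peak in a given Rb library ran from 26.3% (Kuramochi, DMSO, replicate 1) to 64.9% (OVCAR-3, INX-315, replicate 2). The 40 of 40 was unchanged when the promoter was narrowed to 500 bp on either side of a start, and when only summits inside the promoter or only peaks with a q-value of at most 0.001 were counted. The share of all protein-coding genes in all 8 libraries was then 18.3%, 18.1% and 16.2%.

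The regions lay over the annotated starts. The MSH3 region, merged over libraries as all of them were, was chr5:80654016-80655454 (plus strand). The PMS1 region (chr2:189783437-189785068, plus strand) was shared with ORMDL1, a regulator of sphingolipid synthesis, whose start lies 111 bp away and faces the other direction. The PMS2 region (chr7:6008650-6009549, minus strand) was shared with AIMP2, a scaffold protein of the tRNA synthetase complex, at a distance of 223 bp and likewise divergent. The EXO1 region (chr1:241847609-241848929, plus strand) held no second protein-coding start, but that of a divergent long non-coding RNA, ENSG00000288723, at 76 bp. MSH6 (chr2:47782507-47784600, plus strand) stood alone. The peak values at PMS1 and PMS2 therefore belong as much to ORMDL1 and AIMP2 as to the repair gene.

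Because E2F factors are known partners of Rb, the regions were searched on both strands for the 8-letter E2F words TTTCCCGC, TTTCGCGC, TTTGCCGC and TTTGGCGC. Whether Rb reached these promoters through E2F was not tested. Each of the 5 regions held at least 1 such word somewhere in its whole extent of 900 to 2094 bp. The share of all promoter regions that do so over their whole extent was not counted, and shares in fixed windows are given below. For 4 of the 5 members the following 30 bases (hg38) surround the word, each read along the strand of the repair gene with the E2F word in capitals.
MSH6 (chr2:47783137-47783166): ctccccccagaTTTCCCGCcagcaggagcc
PMS1 (chr2:189783825-189783854): ttcccagcaggTTTGCCGCgctgcccacga
PMS2 (chr7:6009131-6009160): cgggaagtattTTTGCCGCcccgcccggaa
EXO1 (chr1:241848197-241848226): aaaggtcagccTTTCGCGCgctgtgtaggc

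The MSH3 region held TTTGGCGC on the plus strand and TTTCGCGC on the minus strand, which overlap. Counted from the canonical start, with the start itself as 0, the first base of the word lay at −107 bp in MSH3, 3 bp in MSH6, −614 bp in PMS1, −100 bp in PMS2 and 4 bp in EXO1. The words of MSH6 and EXO1 thus sat in the first transcribed bases of the gene, those of MSH3 and PMS2 just upstream, and that of PMS1 well upstream and away from its Rb summit. In a 300 bp window centred on the median summit, MSH6, PMS2 and EXO1 held an E2F word (3 of 5), compared with 11.6% of the 3186 promoter regions that had a peak in all 8 libraries and 6.28% of all 16143 promoter regions with a peak in any library. Widening the window to 1000 bp added MSH3 (4 of 5), against 23.2% and 13.8% of the same sets. These matches are a description of the letters and not a measure of E2F binding.

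Other promoter words were less particular. GGGCGG, the GC box of Sp-type factors, was present within the 1000 bp window at 5 of 5 members and at 97.8% of regions with a peak in all libraries. CCAAT, the word of the NF-Y factor, was found at MSH3, MSH6, PMS1 and PMS2 (4 of 5) against 66.0%. TTTGAA, the core of the cell cycle homology region (CHR) bound by the MuvB complex, was found at EXO1 alone (1 of 5) against 24.5%. The shared PMS2 and AIMP2 promoter is the most compact of the regions, and the whole stretch between the outermost annotated starts of both genes (chr7:6009131-6009254, hg38, 124 bp, read on the strand of PMS2, no annotated exon) is shown because it holds the E2F word beside CCAAT and GC box words. Capitals mark every match, CCAAT in either orientation first and last the E2F word, which overlaps 1 of the 2 GC boxes beside it on the opposite strand.
PMS2 and AIMP2: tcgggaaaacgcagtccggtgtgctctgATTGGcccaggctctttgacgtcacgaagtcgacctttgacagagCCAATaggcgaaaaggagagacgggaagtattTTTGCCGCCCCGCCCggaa

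The summits were placed with little scatter between libraries. Relative to the canonical start and along the direction of transcription, they lay between −59 and 196 bp at MSH3 (median 142.5), between 60 and 191 bp at MSH6 (median 111), between 14 and 181 bp at PMS1 (median 62) and between −25 and 117 bp at PMS2 (median 13.5). EXO1 was the exception in direction, with summits from −174 to 82 bp and a median of −113 bp, on the side of the divergent RNA. Peaks at MSH6 spanned 858 to 1567 bp in DMSO libraries and 1639 to 2094 bp in INX-315 libraries, without overlap, and were the widest of the members in each INX-315 library. At PMS2 they spanned 218 to 702 bp and 798 to 900 bp, again without overlap, whereas widths at EXO1 ran from 665 to 749 bp under DMSO and from 661 to 1238 bp under INX-315 and overlapped. PMS1 widths (1268 to 1321 and 1369 to 1559 bp) did not overlap either, while those of MSH3 (686 to 1300 and 1077 to 1342 bp) did. Peaks were wider in general under INX-315, with a median width per library of 482 to 559 bp with DMSO and 619 to 775 bp with INX-315. The share of all regions without overlap in width was not counted. A peak grows wider as its flanks pass the caller's threshold, so width was not tested apart from height.

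**Figure D1:**
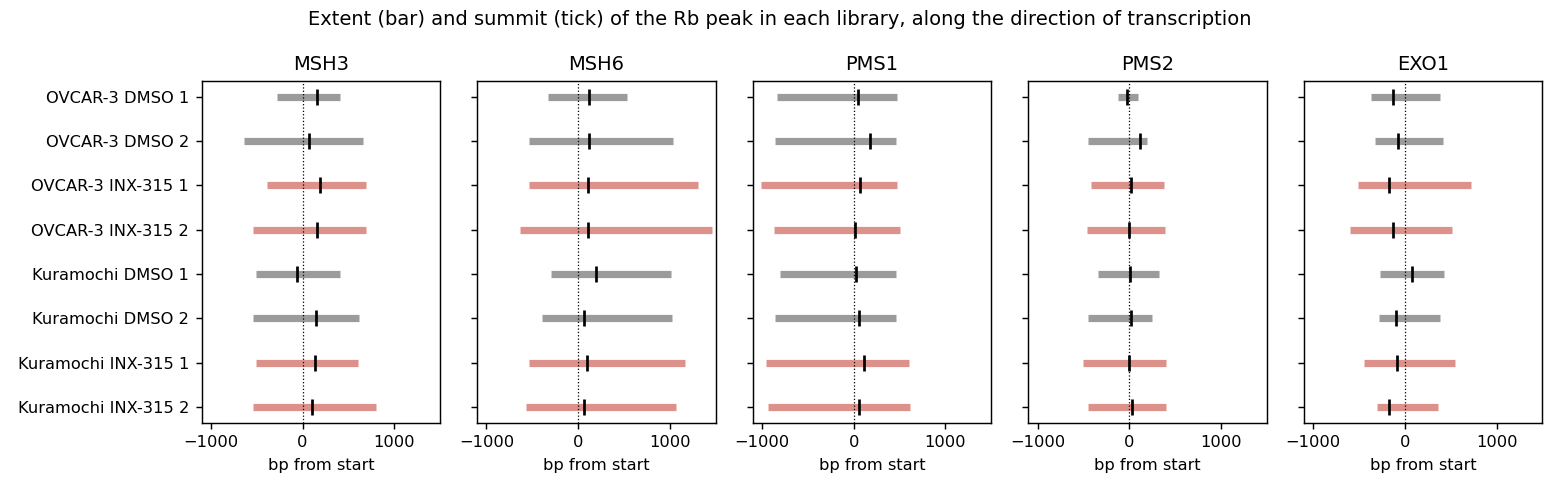
Horizontal position gives the distance in bp from the canonical start of each gene along its direction of transcription, and each row is 1 Rb library (grey, DMSO, and red, INX-315). Bars span the called peak and ticks mark its summit, which stays within 196 bp of the start in all 40 cases.

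To compare signal between libraries, the number of fragments over each summit was recovered from the deposited values and divided by the library's genome-wide mean number of fragments per base. The result, called height here, is a multiple of that mean. The MSH3 height in DMSO-treated OVCAR-3 was 50.5 in replicate 1 and 49.9 in replicate 2, and with INX-315 it was 160 and 171. Kuramochi gave 42.7 and 76.4 with DMSO, then 104 and 120 with INX-315. The INX-315 libraries were above the DMSO libraries in both lines, with the replicates close together in OVCAR-3 and the DMSO replicates further apart in Kuramochi.

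MSH6 reached 44.5 and 53.8 in DMSO-treated OVCAR-3 and 144 and 193 after INX-315. In Kuramochi the DMSO libraries stood at 56.2 and 116 and the INX-315 libraries at 230 and 218, the highest of any member. The groups did not overlap in either line. PMS1 stood at 36.4 and 67.8 in OVCAR-3 with DMSO and at 147 and 207 with INX-315. Its Kuramochi heights were 42.7 and 63.2 with DMSO and 198 and 185 with INX-315. Both lines again separated fully by treatment.

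PMS2, the nicking subunit, had the lowest signal. DMSO-treated OVCAR-3 had heights of 22.2 and 19.9 there, which became 65.3 and 102 with INX-315. DMSO-treated Kuramochi had 27.0 and 29.0, and INX-315 libraries had 64.2 and 120. The treated libraries were higher in each line, but the INX-315 replicates of both lines differed by more than the DMSO replicates did. These values rest on few fragments: the lowest, 19.9, came from 10 fragments and has a 95% Poisson counting interval of 9.56 to 36.7, and over all members the summits held 10 to 93 fragments.

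For EXO1, OVCAR-3 gave 46.5 and 57.8 with DMSO and 101 and 188 with INX-315. Kuramochi gave 38.2 and 76.4 with DMSO and 175 and 181 with INX-315. Treatment groups did not overlap, and the spread was larger between the OVCAR-3 INX-315 replicates and between the Kuramochi DMSO replicates. The same libraries were low or high across members: Kuramochi DMSO replicate 1 was below replicate 2 at all 5 promoters, as was the median over all 3186 regions (29.2 against 47.4).

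**Figure D2:**
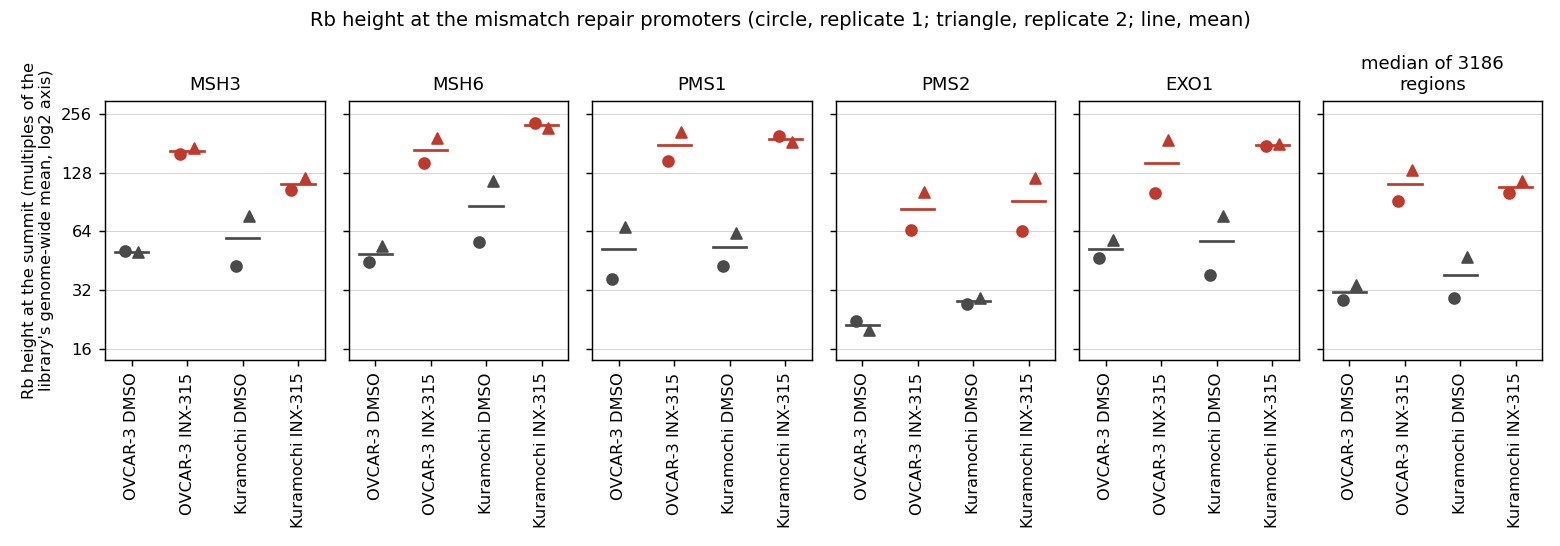
Each point is 1 Rb library (circle, replicate 1, and triangle, replicate 2; grey, DMSO, and red, INX-315), the short line is the mean of the 2 replicates, and the vertical axis is the summit height in multiples of the library's genome-wide mean on a log2 axis. At all 5 genes every INX-315 library lies above the DMSO libraries of its line, as does the median of 3186 promoter regions in the last panel, and PMS2 is the lowest gene.

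Over the 8 libraries the mean log2 height fell in the order MSH6 (6.78), PMS1 (6.59), EXO1 (6.51), MSH3 (6.42) and PMS2 (5.50). Neighbours among the upper 4 did not differ beyond their spread: MSH6 exceeded PMS1 by 0.19 ± 0.37 (SD of the difference in log2 height, n = 8), PMS1 exceeded EXO1 by 0.08 ± 0.28 and EXO1 exceeded MSH3 by 0.09 ± 0.45. The step from MSH3 to PMS2 was larger, 0.91 ± 0.48. PMS2 had the lowest height alone in 7 libraries and was level with MSH3 in the remaining one, Kuramochi INX-315 replicate 2, where both stood on 26 fragments. MSH6 was highest in the 4 Kuramochi libraries, while in OVCAR-3 MSH3 was highest in 2 and PMS1 in 2. The SDs above therefore also hold differences in order between the lines.

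Within the peak list of each library, ranked by significance, MSH3 lay between the percentiles 84.0 and 97.1, MSH6 between 84.2 and 97.2 and PMS1 between 83.3 and 97.9. EXO1 ranged more widely, from 53.4 in Kuramochi DMSO replicate 1 to 96.2. PMS2 lay between 33.3 (OVCAR-3 DMSO replicate 2) and 84.0. Its mean percentile was 36.5 points higher under INX-315 than under DMSO in OVCAR-3 and 22.2 points higher in Kuramochi, while that of MSH3 was 3.1 points higher in OVCAR-3 and 4.4 points lower in Kuramochi (−4.4). The lists themselves differed in length, with 5221 to 8794 peaks in DMSO libraries and 13031 to 17281 in INX-315 libraries, so a percentile is not on the same footing in both.

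The effect of CDK2 inhibition was tested with limma on log2 height over all promoter regions with a peak in all 8 libraries, with line as a covariate. Rb height rose at all 5 members. PMS1 rose 3.60-fold (log2 change 1.85 ± 0.29, SE; adjusted p = 4.63e-10) and PMS2 rose 3.49-fold (1.80 ± 0.30; adjusted p = 5.11e-09). MSH6 rose 3.07-fold (1.62 ± 0.28; adjusted p = 2.05e-08), EXO1 2.96-fold (1.57 ± 0.29; adjusted p = 1.01e-07) and MSH3 2.54-fold (1.34 ± 0.29; adjusted p = 4.63e-06). This was the general pattern of the promoters: 99.7% of the 3186 regions tested were called higher and 0 lower, and INX-315 libraries all lay above DMSO libraries within each line at 96.9% of regions, against 5 of 5 members. The median change over all regions was 1.66 on the log2 scale (3.16-fold).

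Changes are therefore also given relative to that shift. Of the members, PMS1 and PMS2 lay at the percentiles 69.2 and 65.4 of all log2 changes, MSH6 at 45.9, EXO1 at 40.1 and MSH3 at 21.2. After each library was centred on its median log2 height, the change was −0.34 ± 0.17 (SE) at MSH3, −0.12 ± 0.17 at EXO1, −0.07 ± 0.15 at MSH6, 0.12 ± 0.22 at PMS2 and 0.16 ± 0.17 at PMS1. None of the 5 was called (limma adjusted p from 0.185 to 0.804, smallest unadjusted p 0.0548), while 21.3% of all regions were, 245 higher and 435 lower. The 95% interval of MSH3 reached from −0.69 to 0.01. With each library left out in turn, the centred change of MSH3 ran from −0.48 (without OVCAR-3 INX-315 replicate 1) to −0.245 (without Kuramochi DMSO replicate 2).

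limma shares the variance estimate between regions, and because each library's own offset is common to all of them, the adjusted p-values before centring are smaller than 8 libraries alone would give. With each region's own variance, an alternative chosen after seeing the data, all 5 members were still called (adjusted p from 0.00265 to 0.00598). So were 3162 of the 3186 regions. An exact permutation test of each member within lines (two-sided) gave p = 0.0556, the smallest that its 36 arrangements allow. No spike-in scaling was used here and the INX-315 libraries had their own depth and background, so more Rb at promoters and a library with a lower background cannot be told apart in the uncentred values.

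**Figure D3:**
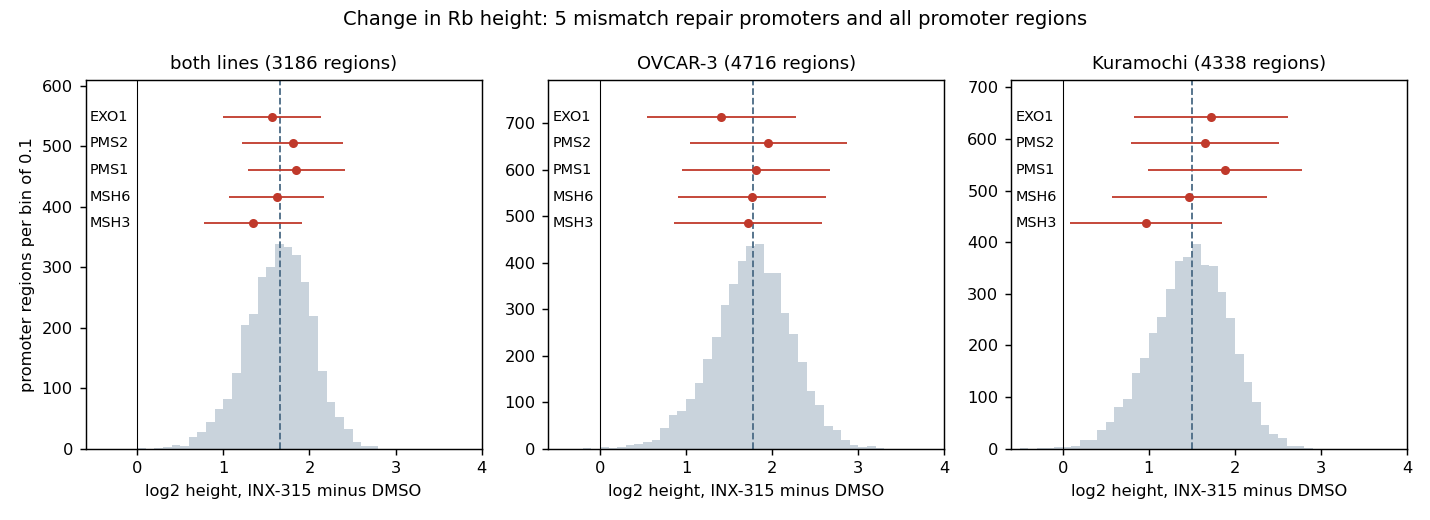
Grey bars count promoter regions by log2 change in height (INX-315 minus DMSO, bins of 0.1) for both lines together, OVCAR-3 and Kuramochi, and the dashed line is their median. Red points with 95% intervals give the 5 members, all above 0, and at heights on the vertical axis that carry no value. The interval of every member includes the median of its panel (1.66, 1.78 and 1.50).

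In OVCAR-3 alone, where 4716 regions had a peak in all 4 libraries, all 5 members were called higher, beside 98.2% of regions. Log2 changes were 1.96 ± 0.46 (SE) at PMS2, 1.81 ± 0.44 at PMS1, 1.76 ± 0.44 at MSH6, 1.72 ± 0.44 at MSH3 and 1.41 ± 0.44 at EXO1, against a median of 1.78 (limma adjusted p from 6.63e-05 to 0.00184). With each region's own variance 4 of the 5 members were called, beside 3717 of 4716 regions, and EXO1 was not (adjusted p = 0.113). The EXO1 change was 1.25 without DMSO replicate 1 and 0.96 without INX-315 replicate 2. It was 1.57 without DMSO replicate 2 and 1.86 without INX-315 replicate 1.

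In Kuramochi, with 4338 regions tested, all 5 members were again called higher, beside 94.8% of regions. PMS1 had the largest change of the members, 1.88 ± 0.46 (SE), followed by EXO1 (1.72 ± 0.46), PMS2 (1.65 ± 0.44), MSH6 (1.47 ± 0.46) and MSH3 (0.97 ± 0.45), where the median was 1.50 (limma adjusted p from 0.00016 to 0.0363). With each region's own variance only PMS1 was called (1 of 5, adjusted p from 0.0968 to 0.182, with 1336 of 4338 regions). The calls also depended on single libraries, for the members and for regions in general. A fit without 1 library leaves a lone sample in its group, so only changes are given. Without INX-315 replicate 2 the members changed by 0.86 to 1.93, and without INX-315 replicate 1 by 1.08 to 2.11. Without DMSO replicate 1 they changed by 0.55 (MSH3) to 1.60, and without DMSO replicate 2 by 1.39 to 2.22. After centring, MSH3 stood at −0.77 without DMSO replicate 1 and at −0.57 to −0.48 without any other library.

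The MSH3 change in Kuramochi was also the one most affected by the background used. On the fold enrichment as deposited, which divides by the local background of the peak, it was 0.36 (adjusted p = 0.424). The local background under the MSH3 summit was 1.00 times the genome-wide mean in DMSO replicate 1 and 2.19 to 2.50 times in the other 3 Kuramochi libraries, compared with 1.34 to 1.35 times in OVCAR-3. Peaks of a line were all called against its 1 IgG2a library, so these are not independent backgrounds of the Rb libraries. The summit also lay elsewhere in DMSO replicate 1, at −59 bp from the start, against 104 to 147 bp in the other 3. MSH6 and EXO1 also had a high local background in Kuramochi (3.54 to 3.82 and 3.54 to 4.98 times the mean) and a low one in OVCAR-3 (1.13 to 1.35 and 1.00 to 1.12 times). EXO1 in Kuramochi DMSO replicate 1 accordingly had a listed fold enrichment of 5.83 at a height of 38.2, whereas in OVCAR-3 DMSO replicate 1 it had 15.7 at a height of 46.5. The part of this background in the differences between lines was not tested.

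The effect of INX-315 was not shown to differ between the lines at any member. The change in Kuramochi minus that in OVCAR-3 was −0.75 at MSH3 (95% interval −1.94 to 0.44), −0.30 at PMS2 (−1.50 to 0.90), −0.29 at MSH6 (−1.47 to 0.88), 0.07 at PMS1 (−1.11 to 1.25) and 0.31 at EXO1 (−0.88 to 1.50), all on the log2 scale. limma called 0 of 5 members (each adjusted p = 0.998) and 0.0% of the 3186 regions, of which 83 had an unadjusted p under 0.05. With 2 replicates a group the intervals still admit more than a 2-fold difference in effect in at least 1 direction at each member.

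The PMS2 region has near copies elsewhere in the genome, where short reads can be placed wrongly. It aligned over 899 to 900 bp to 5 further places on chromosome 7 at 81.0 to 88.0% identity, and these places had Rb peaks of their own in 1 to 7 of the 8 libraries. How reads were divided between such copies was not tested, and heights at PMS2 and AIMP2 carry that uncertainty.

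The further genes of the reaction were taken as a list of 21, by role. Rb peaks were present in all 8 libraries at 14 of them, against the 18.8% of all genes. Of the MutS and MutL homologues, the meiotic gene MSH4 had no peak in any library, and MLH3, a MutL subunit, had peaks in 5, namely all OVCAR-3 libraries and Kuramochi INX-315 replicate 1. Its heights were low, 18.2 and 21.9 (DMSO) and 35.9 and 19.0 (INX-315) in OVCAR-3, and 22.2 in the Kuramochi library, and with peaks missing it was not tested for treatment. MSH5, the meiotic partner of MSH4, had peaks throughout. Whether other genes share the promoter regions of this list was not examined, so its peaks may belong to neighbours as well.

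The clamp loader subunits RFC1 and RFC5, which help place the PCNA ring on DNA, each lacked a peak only in Kuramochi DMSO replicate 1, the shortest of the lists. RFC1 otherwise stood between 22.2 and 92.6 and RFC5 between 15.8 and 38.0. SETD2, the methyltransferase whose H3K36 mark recruits the MSH6 complex, lacked a peak in that same library and stood between 20.2 and 59.4 elsewhere. POLD4, the small subunit of the resynthesising polymerase δ, had peaks in all 4 INX-315 libraries (45.7 and 92.7 in OVCAR-3, 51.9 and 102 in Kuramochi) but in only 1 of 4 DMSO libraries (21.1, Kuramochi replicate 2). FAN1, a nuclease that acts with MutL proteins, likewise had peaks in all 4 INX-315 libraries (32.6 and 49.9, then 27.2 and 27.8) and in 1 DMSO library (16.0, OVCAR-3 replicate 2). A peak missing from a list is a signal under the caller's threshold at that library's depth, not a measured 0.

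PCNA, the sliding clamp that directs the nick, was one of the strongest of the list, with heights of 101 and 154 (DMSO) and 316 and 352 (INX-315) in OVCAR-3. Its Kuramochi libraries had 115 and 224 with DMSO, then 235 and 371 with INX-315, a narrow gap between the groups. LIG1, the ligase that seals the repaired strand, stood at 135 and 140 (DMSO), then 333 and 487 (INX-315), in OVCAR-3. In the same order it had 173 and 221, then 561 and 574, in Kuramochi. Both genes were above all 5 members in each of the 8 libraries, with the closest approach in Kuramochi INX-315 replicate 1 (PCNA 235 against MSH6 230).

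All 14 of the tested partner genes rose (14 of 14, beside the 99.7% of regions), by 0.93 to 1.91 on the log2 scale with a median of 1.35, below the 1.66 of all regions. The largest change was at RPA2, a subunit of the single-strand binding protein (1.91), and the smallest at RFC2 (0.93). After centring, 6 of the 14 were called lower and 0 higher, where 13.7% of all regions were called lower: RFC2 (−0.76), MSH5 (−0.65), POLD3 (−0.61), PCNA (−0.54), MCM9, a helicase (−0.51), and RPA3 (−0.39). MCM9 (adjusted p = 0.0726) and RPA3 (adjusted p = 0.0666) were not called at a threshold of 0.05, and with 1 library left out in turn 4 to 5 of the 14 were called lower, with MSH5, PCNA and POLD3 among them each time (alternatives chosen after seeing the data). LIG1 was not called (−0.14, adjusted p = 0.414). Of the 5 members, none was.

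**Figure D4:**
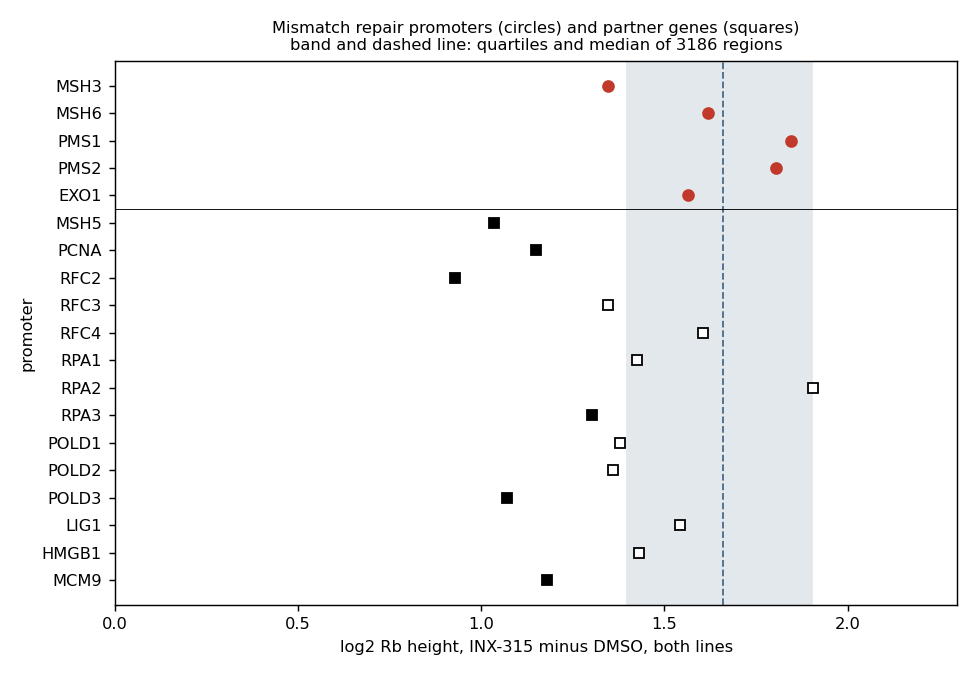
Points give the log2 change in Rb height (INX-315 minus DMSO, both lines) of the 5 members (circles) and of the 14 partner genes with a peak in all 8 libraries (squares, filled where the change was called lower after centring). The grey band spans the quartiles of the 3186 regions (1.40 to 1.90) around their median (1.66): 4 of the 5 members lie inside it and MSH3 just below, while the filled squares lie to its left.

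The genes whose heights over the 8 libraries were most like those of a member were found by the root mean square difference of log2 height. These differences, 0.164 to 0.213, are small beside the changes with treatment. Nearest to MSH3 were SPPL2A, ZBED5 and FRMD5, and nearest to MSH6 were VAPB, ATL3 and PIM1. PMS1 was followed by STRIP2, PPP2R5A and NRM, and PMS2 by SAXO2 and EFL1, which share a region, and IRF2BP2. For EXO1 they were RPN2 and MROH8, which also share a region, and SLC30A1. No member was among the 3 nearest genes of another.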

How the data were processed

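Per the study's methods and the submitters' processing notes, the authors aligned paired reads to hg38 with Bowtie2 (2.3.4.1) and called peaks in each library separately with MACS2 (2.2.7.1) against the IgG2a library of the line at q = 0.05. The deposited lists give, per peak, a fold enrichment (a ratio to local background), a −log10 p-value and −log10 q-value and an integer display score that was not used. Peak lists hold no read totals. Whole fragments at the summit were recovered from the deposited fold and p-value (relative tolerance 3e-05) for 99.73 to 99.99% of peaks per Rb library, and numbers offset by a half-fragment matched at most 1.956%. The lowest background gave the genome-wide mean, 0.216 to 0.501 fragments per base. Counting intervals cover counting error only.

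Peaks of the 8 Rb libraries were merged where they overlapped by 1 bp or more. Of 16143 promoter regions, 3186 had a peak in all 8. Log2 heights were tested with limma 3.58.1 (R 4.3.3; trended empirical Bayes) across all such regions, with Benjamini-Hochberg adjustment and a threshold of 0.1, after tests on simulated data. Region copies were sought with minimap2. The members, the list of partner genes and the words searched were chosen with earlier results of these data known. Named genes are the members, genes that share their regions (what else the MSH3 region holds is not reported here), the partner list (values where a peak was missing, and for PCNA and LIG1) and the 3 genes nearest in height. RFC2, RPA2, MSH5, POLD3, MCM9 and RPA3 were named after their values were seen. Sequences are from the hg38 reference and annotations from GENCODE 44.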

Additional observations from a re-analysis of the deposited data

How the results depend on the processing

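Presence of a peak at all 5 promoters in every library held under all 13 alternatives. Of all protein-coding genes, 14.7 to 23.6% had a promoter peak in every library used. Over both lines, all 5 members were called higher under each alternative that kept every library, except centring. The smallest share of regions called in those fits was 3085 of 3186, on the listed fold enrichment. With 1 library left out the median log2 change of the members was 1.44 to 1.86. Centring each library on its median left 0 members called over both lines, in OVCAR-3 and in Kuramochi, and regions called fell from 3176 to 680, from 4633 to 399 and from 4112 to 464. This follows from its construction, which subtracts each library's median log2 height and so most of the shift common to all regions. Over both lines it reversed the sign at MSH3 (−0.34), MSH6 (−0.069) and EXO1 (−0.12). The same held in OVCAR-3 at MSH3 (−0.16), MSH6 (−0.11), PMS1 (−0.065) and EXO1 (−0.47). In Kuramochi it held at MSH3 (−0.56) and MSH6 (−0.053). The median centred change of all regions was itself −0.026 over both lines, −0.097 in OVCAR-3 and −0.021 in Kuramochi. PMS1 in OVCAR-3 lay above that median, at percentile 52.8 of all changes. Without moderation, an alternative chosen after seeing the data, 4 members were called in OVCAR-3 (3717 of 4716 regions, against 4633). In Kuramochi 1 was (1336 of 4338 regions, against 4112). A fit with 1 library left out assumes the lone sample of a group to vary like the others. In such fits the members changed by 0.96 to 2.28 in OVCAR-3 and by 0.55 to 2.22 in Kuramochi. Some of their calls were lost in each line, as were those of many other regions. Of the 215 values of single genes, 186 kept direction and call, 20 lost the call and 9 reversed as given. Replicate numbers did not pair the samples (correlation of deviations −0.05 in OVCAR-3 and 0.005 in Kuramochi). With a replicate block, 5 members were called over both lines and in each line, 0 differed between lines and 1 region did. Summits of 10 to 93 fragments limit the precision of single heights, and 2 libraries per group limit every comparison.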
